A study of Homo sapiens with 24 samples.

Results

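The matricellular genes THBS1, THBS2, COMP, TNC, SPARC, POSTN, VWF, CCN1 and CCN2 were followed across the 8 conditions of an ovarian cancer RNA-seq series. These 9 genes were taken by name from the 28277 genes in each of 2 count tables. They were chosen by results already known from the same counts, and the comparison behind that choice is not recorded. The members' levels, fold changes and calls below are therefore descriptions, and no p-value is given for a member.

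PEO1 and PEO4 are established human ovarian adenocarcinoma cell lines from the same case, PEO1 sensitive and PEO4 resistant to platinum drugs, and the series asked how expression differs between them and after the G-quadruplex ligand pyridostatin (PDS) was added. G-quadruplexes are stacked structures that guanine-rich DNA can fold into. Pair A was PEO1 A, labelled WT and lacking functional BRCA2, and PEO4 A, labelled WT with BRCA2 function, both untreated. Pair B was PEO1 B, labelled BRCA2+ because BRCA2 function had returned by spontaneous reversion, and PEO4 B, labelled WT. Both B lines were sequenced untreated and after 2 h or 6 h in medium with 5 µM PDS, and the labels give the controls no treatment, so no vehicle is stated. Each of the 8 conditions had 3 libraries, described as biological replicates, giving 6 libraries in the table of pair A and 18 in the table of pair B. The 2 tables were normalised separately, so values are compared within a table and only set side by side across tables. In pair A line and BRCA2 function changed together and cannot be told apart, while both lines of pair B had BRCA2 function. Across the pairs, the state of PEO1 and the experiment cannot be told apart.

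Matricellular proteins are secreted into the extracellular matrix, where they tune adhesion, protease activity and growth factor signalling rather than carrying load. Thrombospondins bind CD47, CD36 and integrins, and THBS1 releases active TGF-beta from its latent complex. Tenascin C and the CCN proteins bind integrins, and CCN1 and CCN2 are classical early targets of the transcription factors YAP/TEAD and SRF/MRTF. In ovarian cancer much of this matrix is laid down by stromal fibroblasts, but cultured tumour cells express part of it themselves.

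THBS1 lies at chr15:39581079-39599466 on the plus strand, THBS2 at chr6:169215780-169254050, COMP at chr19:18782773-18791305, TNC at chr9:115019575-115118207, SPARC at chr5:151661096-151686975, POSTN at chr13:37562583-37598844, VWF at chr12:5948877-6124770, CCN1 at chr1:85580761-85584589 and CCN2 at chr6:131948176-131951372 (hg38, GENCODE release 44). CCN1 is also on the plus strand, and the other 7 members are on the minus strand. The intervals of 6 members overlap other annotated genes, among them FSIP1, THBS1-AS1 and THBS1-IT1 at THBS1 and LINC01013 at CCN2. VWF has a partial copy, the pseudogene VWFP1 at chr22:16690103-16704477, so VWF counts are uncertain where reads fit both. Whether counting used strand is not given in the sources used here, so reads of a member and of a gene on the opposite strand may not have been separated.

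The 250 bases before the RefSeq start sites of THBS1, TNC and CCN2 are printed. These are 3 of the 5 members called higher in PEO4 B after 2 h of PDS, a ligand of G-quadruplexes. Of the rest, CCN1 had no entry among the RefSeq promoter sequences used here, and SPARC is described below but not printed. Capitals mark matches on either strand to 4 searched motifs: a G-quadruplex motif (4 runs of at least 3 guanines with loops of 1 to 7 bases), GGAATG (the core bound by TEAD factors), TGANTCA (AP-1) and the CArG box (SRF). The sequences come from RefSeq (GRCh38.p14) and are written 5′ to 3′ on the strand of the gene, THBS1 at chr15:39580829-39581078 (plus), TNC at chr9:115118158-115118407 (minus) and CCN2 at chr6:131951373-131951622 (minus).
THBS1: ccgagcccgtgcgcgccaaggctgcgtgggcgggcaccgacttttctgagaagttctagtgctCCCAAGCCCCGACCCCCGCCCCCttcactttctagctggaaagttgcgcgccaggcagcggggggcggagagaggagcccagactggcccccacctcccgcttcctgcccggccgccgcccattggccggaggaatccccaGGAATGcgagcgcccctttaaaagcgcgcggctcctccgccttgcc
TNC: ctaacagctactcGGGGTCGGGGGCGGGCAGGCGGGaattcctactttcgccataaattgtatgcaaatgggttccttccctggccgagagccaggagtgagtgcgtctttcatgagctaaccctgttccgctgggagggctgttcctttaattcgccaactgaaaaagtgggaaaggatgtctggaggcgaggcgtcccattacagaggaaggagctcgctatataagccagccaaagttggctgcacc
CCN2: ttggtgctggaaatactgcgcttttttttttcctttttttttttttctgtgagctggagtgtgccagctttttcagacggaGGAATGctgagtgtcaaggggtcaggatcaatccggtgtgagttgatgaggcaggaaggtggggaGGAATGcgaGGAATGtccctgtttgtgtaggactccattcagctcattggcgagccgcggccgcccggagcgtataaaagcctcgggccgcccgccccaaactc
The THBS1 window held 1 G-quadruplex motif, on the minus strand from 187 to 165 bases before the start, and 1 GGAATG from 46 to 41 bases before it. The TNC window held 1 G-quadruplex motif, on the plus strand from 237 to 215 bases before the start, and no GGAATG. The CCN2 window held 3 GGAATG copies, beginning 169, 104 and 95 bases before the start, and no G-quadruplex motif. Of all 35116 windows of this length in the RefSeq table, 23.5% held a G-quadruplex motif, 11.9% held GGAATG, 6.57% held TGANTCA and 1.16% held a CArG box. Entries matched 7 of the 9 members, all but VWF and CCN1. Of the others, THBS2 held 2 GGAATG matches, COMP and SPARC 1 each, and POSTN 1 TGANTCA, and none of them held a G-quadruplex motif. Whether the motif goes with the change after PDS was not tested.

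Library totals ran from 32528913 to 63882077 counts in pair A, from 18699929 to 22375644 in untreated pair B and from 33260167 to 43713947 in PDS-treated pair B. The share of counts on ribosomal RNA genes was 0.217 to 0.473% in the untreated B libraries and 0.0163 to 0.0369% in the treated ones. Depth and ribosomal share thus moved with PDS in every library, and their part in the differences below cannot be told apart from treatment. All 8 ovarian carcinoma markers (PAX8, WT1, MUC16, EPCAM, KRT7, KRT8, KRT18, MSLN) were detected in every condition, with a summed level of 4850 to 14100 CPM (counts scaled to a common library size). The 8 fibroblast markers summed to 48.1 to 53.4 CPM in PEO1 A and 8.47 to 13.6 in PEO4 A. In pair B they summed to 12.6 to 17.9 CPM over all PEO1 B libraries, where COL3A1 and LUM were at 0, and to 36.7 to 39.4 CPM in untreated PEO4 B, 10.1 to 13.9 after 2 h and 4.53 to 5.71 after 6 h, where DCN was at 0 after PDS. The 7 endothelial markers summed to at most 1.74 CPM in PEO1 B and to 11.9 to 41.7, 83.3 to 102 and 93.6 to 109 CPM in PEO4 B at 0, 2 and 6 h. TIE1 made up most of the last sums, at 22.3, 94.9 and 101 CPM, while CDH5 and TEK were at 0 in PEO4 B throughout. In bulk RNA, fewer cells of a type and less RNA per cell cannot be told apart.

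Levels per kilobase of the canonical transcript placed SPARC, CCN1, CCN2 and THBS1 far above the other members in most conditions. In PEO1 A, SPARC came highest at 185 ± 11.2 CPM per kilobase (SD, n = 3), ahead of THBS1 at 108 ± 28.3 and CCN1 at 96.8 ± 6.31, whose libraries overlapped, and CCN2 at 65.1 ± 6.68. In PEO4 A, CCN1 (28.01 ± 4.94), SPARC (25.3 ± 8.52) and CCN2 (20.01 ± 3.72) overlapped with their neighbours in this order, and THBS1 stood apart at 1.21 ± 0.0756. Untreated PEO1 B had SPARC (93.3 ± 2.85) and CCN1 (89.2 ± 13.5) overlapping at the top, followed by THBS1 (58.9 ± 4.55) and CCN2 (31.2 ± 8.68), each apart from the next. Untreated PEO4 B had CCN1 (64.5 ± 19.9), CCN2 (37.8 ± 17.7) and SPARC (31.6 ± 4.61) at the top, each overlapping its neighbour, with THBS1 at 3.50 ± 1.32. After 2 h of PDS, CCN1 (334 ± 25.1) and CCN2 (259 ± 21.5) led in PEO4 B, each apart from the next. After 6 h, CCN1 (103 ± 5.45) again led, while THBS1 (57.2 ± 3.69) and SPARC (54.7 ± 2.86) overlapped below it. TNC came next below these 4 in every condition but untreated PEO4 B, where COMP (0.902 ± 0.594) and TNC (0.607 ± 0.653) overlapped. THBS2 and VWF followed, and COMP (elsewhere) and POSTN came last.

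**Figure D1:**
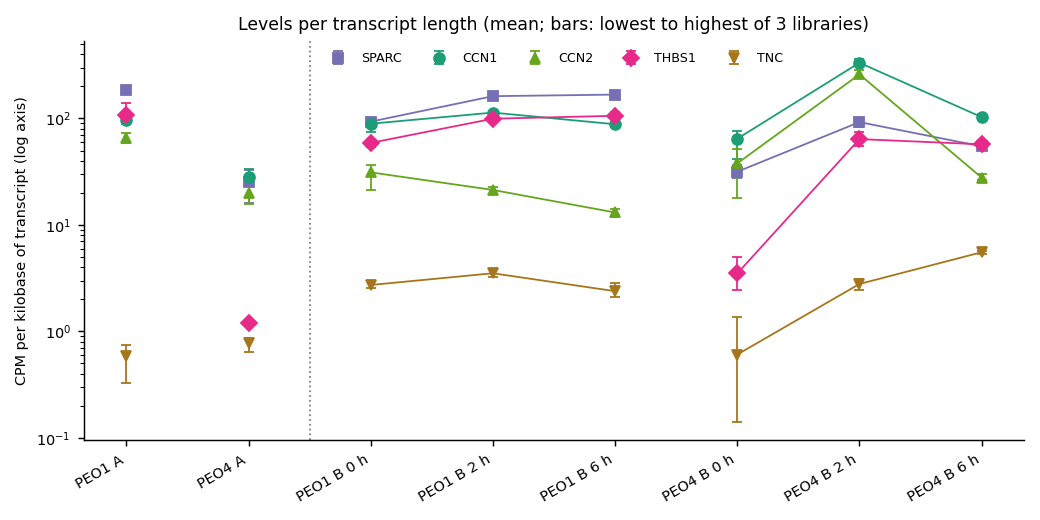
Mean level of SPARC, CCN1, CCN2, THBS1 and TNC in CPM per kilobase of transcript (log axis) in the 8 conditions, with bars from the lowest to the highest of 3 libraries; the dotted line divides the separately normalised tables. THBS1 was at 108 in PEO1 A and 1.21 in PEO4 A, and in PEO4 B at 3.50 untreated and 64.0 after 2 h of PDS, when CCN1 and CCN2 reached 334 and 259.

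A gene was called changed when its adjusted p (edgeR quasi-likelihood test, Benjamini-Hochberg over all genes of the table) was under 0.05 and its log2 fold change was above 1 or below -1. In pair A, 7 of the 9 members passed the filter on low counts (all but COMP and POSTN). Of these, 4 were called lower and 0 higher in PEO4 A than in PEO1 A, where 13.1% of all 15882 tested genes were called lower and 12.6% higher. The median log2 fold change was -1.70 over the tested members and -0.0061 over all genes. In pair B, 8 members passed the filter (all but POSTN), and untreated PEO4 B had 3 called lower and 2 called higher than PEO1 B, against 12.6% lower and 12.2% higher of all 17020 tested genes. The medians were -0.0931 over the members and -0.0011 over all genes. COMP passed this filter only through untreated PEO4 B, so its calls follow from its passing.

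After PDS, more members were called in PEO4 B than in PEO1 B. After 2 h in PEO1 B, edgeR called 0 of 8 members higher and 0 lower, against 1.18% and 6.39% of all genes; 3 members had an unadjusted p under 0.05, and DESeq2 called 0. After 6 h in PEO1 B, 0 were called higher and 1 lower, against 1.29% and 6.83%. In PEO4 B, 5 members were called higher and 2 lower after 2 h, against 6.4% and 11% of all genes, and 2 higher and 3 lower after 6 h, against 6.26% and 16.3%. At 6 h the split over all genes was 1066 higher and 2782 lower, and with library totals in place of TMM factors 698 higher and 3334 lower. The same change of scaling turned 201 higher and 1087 lower into 120 and 1491 in PEO1 B at 2 h, and 220 and 1163 into 146 and 1548 at 6 h. Median log2 changes of the members at 2 h and 6 h were 0.51 and 0.14 in PEO1 B and 1.90 and 0.12 in PEO4 B, and those of all genes lay between -0.0281 and 0. Between 2 h and 6 h, edgeR called 0 members higher and 0 lower in PEO1 B, against 0.0705% and 0.0999% of all genes, with 1 member at an unadjusted p under 0.05 and 0 called by DESeq2. Over the same interval in PEO4 B, 0 were called higher and 3 lower, against 2.27% and 9.71%.

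The difference between the lines' responses was fitted as an interaction (the change in PEO4 B minus the change in PEO1 B). At 2 h this difference was called positive for 4 members and negative for 3, against 6.1% and 4.92% of all genes. At 6 h it was called positive for 2 and negative for 2, against 5.42% and 9.34%. These comparisons share the untreated libraries with those above and are not separate evidence.

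THBS1 encodes thrombospondin 1, a trimeric glycoprotein that restrains angiogenesis and activates latent TGF-beta. Its level was 1099, 738 and 698 CPM in the 3 PEO1 A libraries and 8.89, 10.04 and 9.25 CPM in PEO4 A. All 3 PEO4 A libraries lay far below all 3 of PEO1 A, a log2 difference of -6.50 ± 0.20 (SE) or 90.2-fold. In pair B, untreated THBS1 was 423, 459.9 and 494 CPM in PEO1 B and 23.7, 38.9 and 19.3 CPM in PEO4 B, again without overlap, and 16.9-fold lower in PEO4 B (log2 -4.08 ± 0.21).

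After PDS, THBS1 rose in PEO4 B at both times, to levels near those of untreated PEO1 B. It was 478, 586 and 431 CPM after 2 h and 442.5, 418 and 476 CPM after 6 h, or 18.3-fold (log2 4.20 ± 0.21) and 16.4-fold (log2 4.03 ± 0.21) above untreated PEO4 B. In PEO1 B, THBS1 was 748, 755 and 821 CPM after 2 h and 810.1, 773 and 891 CPM after 6 h. Treated and untreated PEO1 B did not overlap, with differences of 1.69-fold and 1.80-fold (log2 0.76 ± 0.18 and 0.85 ± 0.18) that stayed under the fold change threshold. The change in PEO4 B exceeded that in PEO1 B by 3.44 ± 0.26 at 2 h and 3.19 ± 0.26 at 6 h on the log2 scale. Between 2 h and 6 h the THBS1 libraries overlapped in both lines.

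THBS2 encodes the related thrombospondin 2, also an inhibitor of angiogenesis, and was low in all conditions. Pair A showed 2.07, 1.68 and 2.03 CPM in PEO1 A and 2.02, 2.41 and 1.62 CPM in PEO4 A, which overlapped (log2 0.06 ± 0.24). In PEO4 B the 3 untreated libraries were at 1.73, 1.36 and 1.94 CPM, all above the 0.861, 0.878 and 0.960 CPM after 2 h and the 0.716, 0.671 and 0.629 CPM after 6 h. The libraries of THBS2 thus lay lower after PDS in the line where those of THBS1 lay higher, with a log2 change of -0.90 ± 0.21 at 2 h, which was not called, and of -1.31 ± 0.22 at 6 h, which was. At 2 h the call appears when library totals replace TMM factors (-1.03) and without replicate 2 of untreated PEO4 B (-1.02). PEO1 B had 0.958, 1.24 and 1.14 CPM untreated, 1.64, 1.76 and 1.88 after 2 h and 1.25, 1.61 and 1.26 after 6 h. There the 2 h libraries were all above the untreated ones (log2 0.65 ± 0.21, not called), and the 6 h libraries exceeded them by little (log2 0.29 ± 0.21, not called). The responses of the lines differed by -1.55 ± 0.30 at 2 h and -1.60 ± 0.31 at 6 h.

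COMP, cartilage oligomeric matrix protein or thrombospondin 5, is mainly a product of cartilage and tendon. It had 65, 11 and 71 counts in untreated PEO4 B (2.81, 0.552 and 3.27 CPM) and at most 3 counts in any other B library. In pair A it had 0, 2 and 1 counts in PEO1 A and 6, 0 and 0 in PEO4 A. The summed COMP counts of untreated PEO4 B were 77.1 times those of untreated PEO1 B at equal depth (147 against 2 counts; 95% exact interval 21.0 to 642, counting error only). They were 51.3 times those after 2 h of PDS (147 against 5 counts; 21.5 to 160) and 246 times those after 6 h (147 against 1 count; 43.4 to 9760). The treated libraries were the deeper ones. Untreated PEO4 B itself spread widely, with replicate 2 far below the others. Fitted changes of COMP depend on the count added to each library by the fit, so they are given only where a call moved: the difference between the lines' 2 h responses (-5.88) was no longer called without replicate 1 of the 2 h PEO1 B libraries (-5.46), and DESeq2 called the difference at 6 h (-5.32), which edgeR did not.

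TNC encodes tenascin C, a hexameric matrix glycoprotein of remodelling tissue and tumour stroma. It was low in pair A, at 2.80, 6.35 and 5.75 CPM in PEO1 A and 7.10, 5.45 and 7.41 CPM in PEO4 A, and the libraries overlapped (log2 0.43 ± 0.27). In pair B, untreated PEO1 B had 25.4, 21.9 and 22.3 CPM and untreated PEO4 B 2.77, 11.5 and 1.20 CPM. The PEO4 B libraries were all lower than those of PEO1 B, by 4.63-fold in the fit (log2 -2.21 ± 0.44), but spread widely among themselves, with replicate 2 the highest. Without that replicate the log2 difference was -3.52, and with only the 2 groups in the fit (-2.19) it was no longer called.

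TNC rose in PEO4 B after PDS at both times. Its level was 24.2, 20.9 and 26.1 CPM after 2 h and 48.4, 47.3 and 45.6 CPM after 6 h, and none of the 3 conditions overlapped. Against untreated PEO4 B the log2 change was 2.25 ± 0.43 (4.74-fold) at 2 h and 3.23 ± 0.42 (9.41-fold) at 6 h, and without replicate 2 of the untreated line these became 3.57 and 4.56. The 6 h libraries exceeded the 2 h libraries by 0.99 ± 0.34 on the log2 scale, just short of the call, which appeared without replicate 3 of either time (1.07 and 1.02). In PEO1 B, TNC was 27.3, 29.7 and 32.7 CPM after 2 h and 18.9, 17.9 and 24.1 CPM after 6 h. The 2 h libraries were above and the 6 h libraries overlapped the untreated ones, and neither change was called (log2 0.37 ± 0.35 and -0.19 ± 0.36). The responses differed by 1.88 ± 0.56 at 2 h and 3.43 ± 0.56 at 6 h. The first of these lost its call without replicate 1 of untreated PEO4 B (1.56), and it was 3.19 without replicate 2, while the second was 4.74 without replicate 2.

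SPARC, or osteonectin, is a collagen-binding glycoprotein that lowers cell adhesion to matrix. PEO1 A had 682, 624 and 609.8 CPM and PEO4 A 54.9, 112 and 94.1 CPM, a 7.34-fold difference (log2 -2.88 ± 0.27) with no overlap. Untreated PEO1 B had 333, 319 and 314 CPM and untreated PEO4 B 104, 127 and 96.1 CPM, a 2.95-fold difference (log2 -1.56 ± 0.08) in the same direction.

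After PDS all SPARC libraries lay above the untreated ones in both lines, and the change was called in PEO4 B at 2 h alone. PEO1 B had 566, 560.5 and 550.4 CPM after 2 h and 592, 595 and 547 CPM after 6 h, all above the untreated libraries, with log2 changes of 0.80 ± 0.08 and 0.84 ± 0.08 that were under the fold change threshold. PEO4 B had 325, 343 and 289 CPM after 2 h (log2 1.55 ± 0.08, called) and 179, 189 and 198 CPM after 6 h (log2 0.79 ± 0.08, not called), also all above the untreated libraries. The 2 h libraries of PEO4 B overlapped the untreated libraries of PEO1 B. The 6 h libraries of PEO4 B were all below its 2 h libraries (log2 -0.76 ± 0.08, not called). The responses of the lines differed by 0.75 ± 0.11 at 2 h and by -0.05 ± 0.11 at 6 h, neither called.

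POSTN encodes periostin, a product of fibroblasts and periosteum. It had 0 counts in all 6 libraries of pair A, which allows a level of up to 0.0462 to 0.0918 CPM per library (3 counts). In pair B it had 4 counts in 3 of 18 libraries. POSTN was therefore not measurable in these lines at this depth.

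VWF encodes von Willebrand factor, the clotting protein of endothelium and platelets. Its counts were low throughout: 22, 18 and 24 in PEO1 A, 42, 20 and 40 in PEO4 A, 4, 9 and 2 in untreated PEO1 B, and 21, 11 and 16 in untreated PEO4 B. As CPM these were 0.460, 0.480 and 0.451 in PEO1 A against 0.647, 0.567 and 1.22 in PEO4 A, and 0.192, 0.372 and 0.0878 in PEO1 B against 0.909, 0.552 and 0.737 in PEO4 B. PEO4 thus had more in every library in both pairs, with log2 differences of 0.79 ± 0.41 in pair A, which was not called, and 1.73 ± 0.55 in pair B, which was and which became 2.39 without replicate 2 of untreated PEO1 B.

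After PDS, VWF in PEO4 B was 0.167, 0.623 and 0.240 CPM at 2 h and 0, 0.0610 and 0.0599 CPM at 6 h, when only 4 counts were left. The untreated and 2 h libraries overlapped, and all 6 h libraries were below both. The summed level of untreated PEO4 B was 20 times that at 6 h (48 against 4 counts; 95% exact interval 7.34 to 76.5), and that at 2 h was 9.09 times that at 6 h (38 against 4 counts; 3.27 to 35.1). The log2 change of -1.12 ± 0.46 at 2 h was called, but lost that call under DESeq2 (-1.13), with only the groups compared (-1.13), without replicate 1 or 3 of untreated PEO4 B (-0.93 and -1.12), and without replicate 1 or 3 of the 2 h libraries (-0.80 and -0.90); without replicate 2 of the 2 h libraries it was -1.82. The change at 6 h was -4.17 ± 0.69 (-3.52 without replicate 1 of the 6 h libraries), and that from 2 h to 6 h was -3.06 ± 0.75 (-2.34 without replicate 2 of the 2 h libraries and -2.40 without replicate 1 of the 6 h libraries). PEO1 B had 0.283, 0.491 and 0.567 CPM at 2 h and 0.407, 0.697 and 0.352 CPM at 6 h, which overlapped with untreated (log2 1.02 ± 0.56 and 1.12 ± 0.56, not called). Without replicate 2 of untreated PEO1 B the 6 h change was called (1.79) and the 2 h change was 1.69. The responses differed by -2.13 ± 0.73 at 2 h, a call lost when any of 6 libraries was left out (-2.06 to -1.77) and as large as -2.85 without replicate 2 of the 2 h PEO4 B libraries. At 6 h they differed by -5.29 ± 0.90, and by -5.96 without replicate 2 of untreated PEO1 B or -4.64 without replicate 1 of the 6 h PEO4 B libraries. Beside these values, the endothelial marker PECAM1 averaged 1.24, 0.205 and 0.0935 CPM in PEO4 B at 0, 2 and 6 h, TIE1 was higher after PDS, and CDH5 and TEK were at 0. The part of other cells in the VWF counts was not tested.

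CCN1 (CYR61) and CCN2 (CTGF) encode secreted integrin ligands, and their RNAs are made quickly and are short-lived. CCN1 was 209, 216 and 237 CPM in PEO1 A and 76.7, 56.0 and 58.7 CPM in PEO4 A, 3.45-fold lower without overlap (log2 -1.79 ± 0.11). CCN2 was 138, 149 and 169 CPM in PEO1 A and 54.0, 37.1 and 49.2 CPM in PEO4 A, 3.25-fold lower without overlap (log2 -1.70 ± 0.13).

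Untreated pair B did not repeat this difference. CCN1 was 228, 169 and 213 CPM in PEO1 B and 174, 172 and 94.4 CPM in PEO4 B, where the libraries overlapped (log2 -0.47 ± 0.18, not called). CCN2 was 85.7, 49.5 and 83.5 CPM in PEO1 B and 121, 102 and 42.0 CPM in PEO4 B, which also overlapped (log2 0.28 ± 0.30, not called). Replicate 3 of untreated PEO4 B was the lowest for both genes, and without it the log2 differences were -0.23 for CCN1 and 0.62 for CCN2.

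After 2 h of PDS, PEO4 B had the highest CCN1 and CCN2 levels of pair B. CCN1 was 722, 826 and 732 CPM, 5.18-fold above untreated (log2 2.37 ± 0.19), and CCN2 was 583, 664 and 572 CPM, 6.85-fold above untreated (log2 2.78 ± 0.31). By 6 h CCN1 was at 225, 230.1 and 248 CPM and CCN2 at 63.2, 70.1 and 61.9 CPM. Both genes were therefore lower at 6 h than at 2 h in all libraries, CCN1 by 3.24-fold (log2 -1.70 ± 0.18) and CCN2 by 9.32-fold (log2 -3.22 ± 0.31). Against untreated PEO4 B, the 6 h level of CCN1 was above all 3 libraries (log2 0.67 ± 0.18, not called, and 0.44 without replicate 3 of the untreated line). That of CCN2 lay within their range only through replicate 3, at 42.0 CPM (log2 -0.44 ± 0.30, not called). Without replicate 3 of the untreated line it was -0.78, and without replicate 1 it was -0.14.

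PEO1 B showed no peak of this size. CCN1 there was 259.7, 270.5 and 246 CPM after 2 h and 202, 205 and 196 CPM after 6 h (log2 0.35 ± 0.18 and -0.02 ± 0.18, not called). Its 2 h libraries lay above all untreated and all 6 h libraries of PEO1 B, a small rise and fall. CCN2 was 53.6, 50.3 and 45.6 CPM after 2 h and 30.9, 33.3 and 27.7 CPM after 6 h, and only the 6 h change was called (log2 -1.25 ± 0.31, 2.38-fold lower). The responses of the lines at 2 h differed by 2.02 ± 0.25 for CCN1 and 3.32 ± 0.43 for CCN2. At 6 h they differed by 0.69 ± 0.25 and 0.81 ± 0.43, neither called, although that of CCN2 was called without replicate 1 of untreated PEO4 B (1.10).

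**Figure D2:**
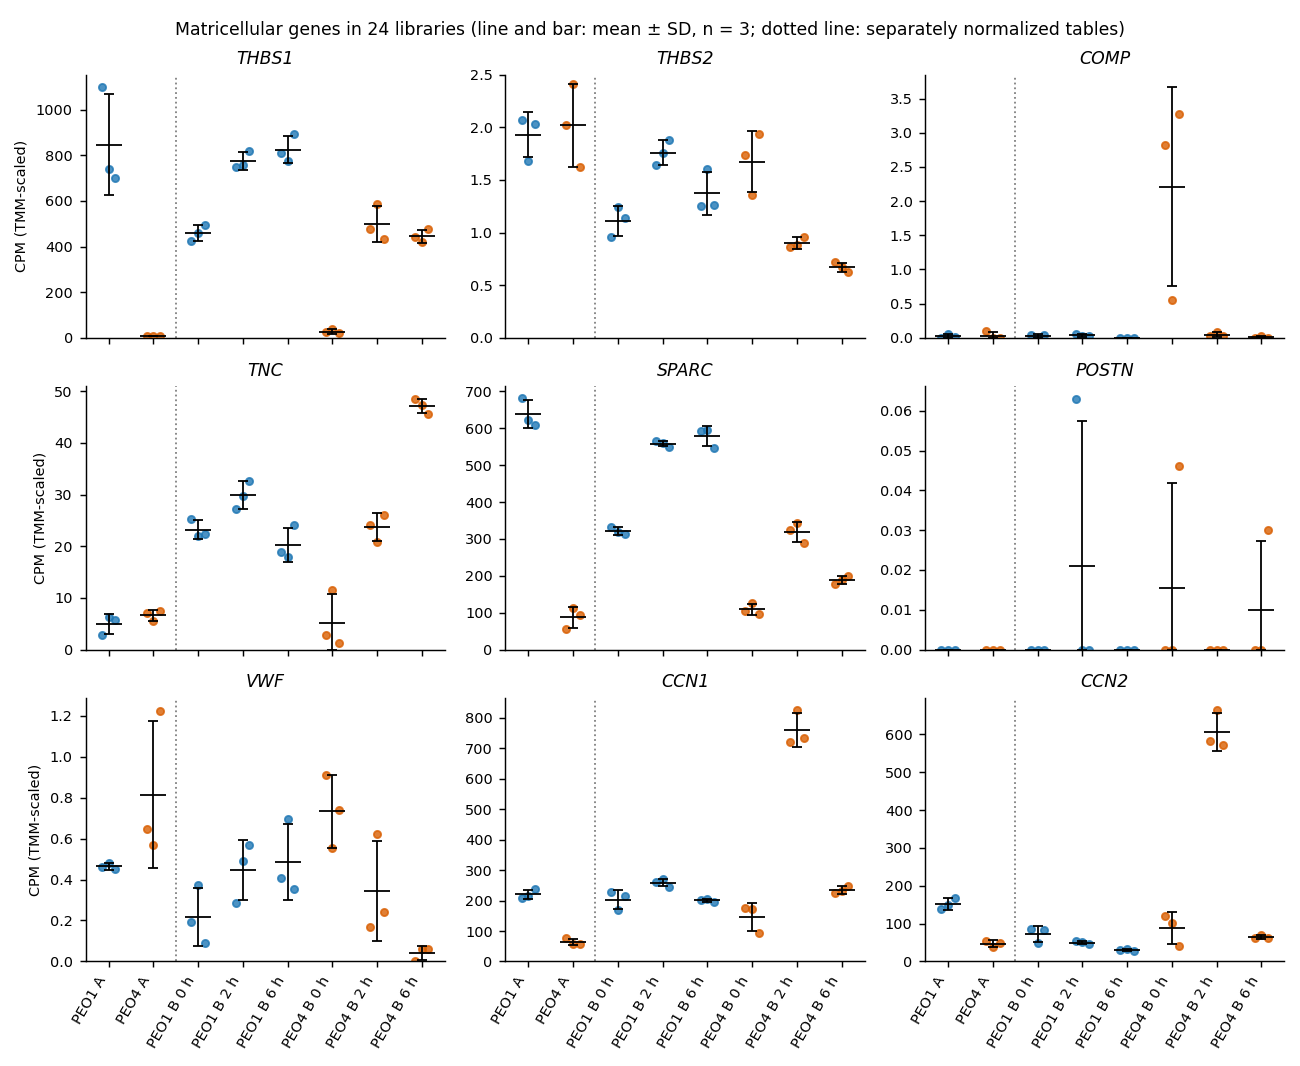
TMM-scaled CPM of each member in every library (points; blue PEO1, orange PEO4) with mean and SD of 3 libraries (black), by condition; each panel has its own linear axis from 0 and the dotted line divides the tables. THBS1 was 8.89 to 10.04 CPM in PEO4 A against 698 to 1099 CPM in PEO1 A, CCN1 and CCN2 peaked at 2 h in PEO4 B, and TNC was highest at 6 h in PEO4 B.

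Seen side by side, the members of PEO4 B followed different time courses. CCN2 was high at 2 h and within the untreated range at 6 h, a range that reached below the 6 h level only through replicate 3. CCN1 was high at 2 h and lower at 6 h, when it still lay above all untreated libraries, a change that passed with the adjusted p alone. SPARC likewise averaged 109 ± 15.9 CPM untreated, 319 ± 27.6 at 2 h and 189 ± 9.89 at 6 h (SD, n = 3), with no overlap between the times. THBS1 was high at both times, and TNC was high at 2 h and 1.99-fold higher still at 6 h, a step that was not called. VWF and THBS2 were lowest at 6 h, and COMP was at or under the floor of 3 counts per library at both times. In PEO1 B no member was called higher at either time, and with the adjusted p alone 3 passed at 2 h (THBS1, THBS2 and SPARC, higher) and 3 at 6 h (THBS1 and SPARC higher, CCN2 lower).

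**Figure D3:**
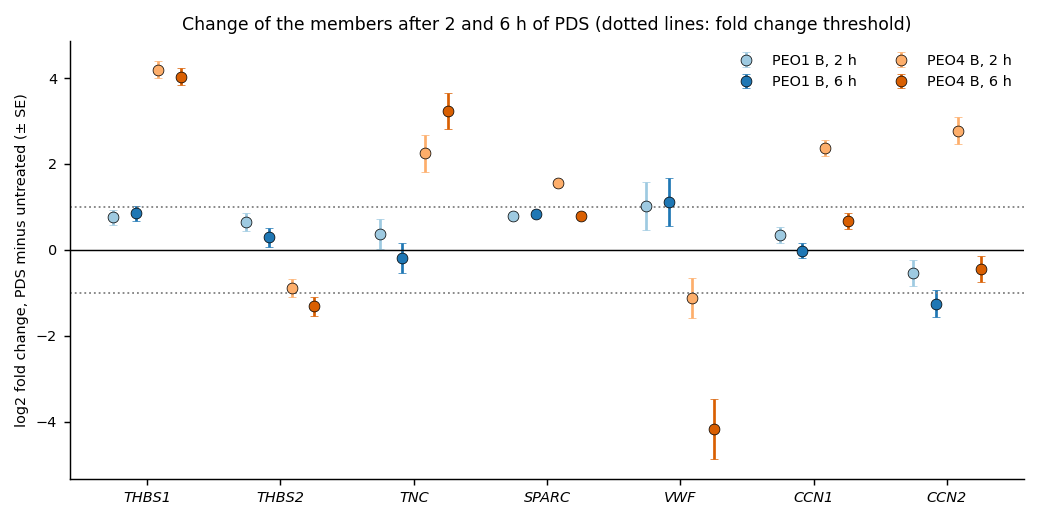
Log2 fold change (± SE) of 7 members after PDS against the untreated line, for PEO1 B (blue) and PEO4 B (orange) at 2 h (light) and 6 h (dark); dotted lines mark the fold change threshold. CCN2 stood at 2.78 at 2 h and -0.44 at 6 h in PEO4 B, while THBS1 stood at 4.20 and 4.03.

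**Figure D4:**
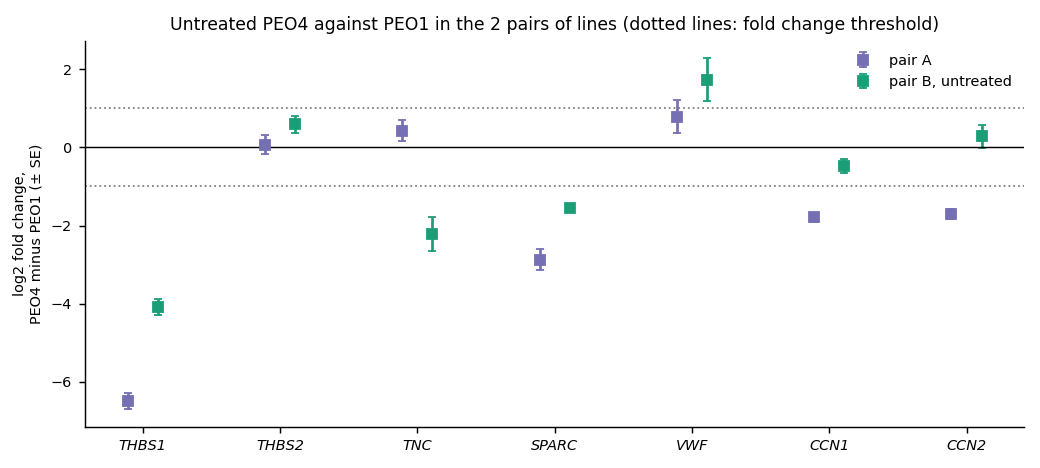
Log2 fold change (± SE) of 7 members in untreated PEO4 against PEO1, for pair A (purple) and pair B (green); dotted lines mark the fold change threshold. THBS1 and SPARC were called lower in PEO4 in both pairs, at -6.50 and -2.88 in pair A and -4.08 and -1.56 in pair B, while CCN1 and CCN2 passed the threshold in pair A alone.

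The other 79 genes examined were receptors, proteases, related matricellular genes, latent TGF-beta genes and the factors and targets of YAP/TEAD and SRF/MRTF. They too were listed with earlier results of these data known, and most of those named were picked by the size of their change. Their adjusted p below are therefore descriptions and not independent evidence. In pair A, 68 of them were tested and 10 were called higher and 21 lower in PEO4 A, against 12.6% and 13.1% of all genes. In untreated pair B, 71 were tested and 19 were called higher and 10 lower in PEO4 B, against 12.2% and 12.6%. In PEO1 B, 2 rose and 5 fell after 2 h and also after 6 h of PDS, against 1.18% and 6.39% of all genes at 2 h and 1.29% and 6.83% at 6 h. In PEO4 B, 11 rose and 8 fell after 2 h, against 6.4% and 11% of all genes, and 10 rose and 19 fell after 6 h, against 6.26% and 16.3%. The same shares of all genes stand behind the counts of the single lists below, which hold 9 to 15 tested genes each. Between 2 h and 6 h edgeR called 0 of the 71 in PEO1 B, where 18 had an unadjusted p under 0.05 and DESeq2 called 1, and in PEO4 B 5 rose and 18 fell, against 2.27% and 9.71% of all genes.

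Among related matricellular genes, 3 of 14 tested were called higher and 7 lower in PEO4 A, against 12.6% and 13.1% of all genes. In untreated PEO4 B, 5 of 15 were called higher and 2 lower, against 12.2% and 12.6%. FBLN2 (log2 6.40 and 7.20) and CCN4 (1.80 and 1.85), named here outside the rule for naming genes, were called higher in PEO4 in both pairs. FBLN2 averaged 0.126 CPM in PEO1 A against 11.2 in PEO4 A, and 0.0617 in untreated PEO1 B against 9.23 in PEO4 B. CCN4 averaged 1.73 against 6.15 CPM in pair A and 0.269 against 0.965 in untreated pair B. The low levels rest on few counts, so the fitted changes of FBLN2 are no measure of size. TGFBI, a TGF-beta-induced integrin ligand, was lower in PEO4 in both pairs, as were THBS1 and SPARC. It was 273 ± 9.49 CPM in PEO1 A and 1.24 ± 0.506 in PEO4 A (SD, n = 3; log2 -7.88 ± 0.22, edgeR adjusted p = 2.72e-09), and 246 ± 7.71 in untreated PEO1 B against 27.1 ± 3.24 in PEO4 B (log2 -3.19 ± 0.07, adjusted p = 7.93e-22). FBLN1, a matrix fibulin, fell in PEO1 B from 30.1 ± 0.692 CPM to 13.5 ± 0.81 at 2 h (log2 -1.16 ± 0.11, adjusted p = 2.26e-08) and 14.3 ± 0.793 at 6 h (log2 -1.08 ± 0.11, adjusted p = 5.33e-08), and its 2 h response was higher in PEO4 B by 1.52 ± 0.15 (adjusted p = 6.92e-08). Of 15 tested genes of this list in PEO4 B, 1 rose and 0 fell at 2 h and 1 rose and 6 fell at 6 h.

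Of 15 receptors tested, 3 rose and 1 fell at 2 h and 3 rose and 4 fell at 6 h in PEO4 B, and 0 rose and 1 fell at each time in PEO1 B. More genes of all kinds were called in PEO4 B than in PEO1 B (2959 against 1288 at 2 h), and whether receptors differed from other genes in this was not tested. ITGB6, which pairs with the alpha-v chain to bind tenascin C and latent TGF-beta, rose from 16.0 ± 14.4 CPM to 148 ± 10.6 at 2 h (log2 3.23 ± 0.39, edgeR adjusted p = 8.38e-06) and 95.7 ± 1.47 at 6 h (log2 2.60 ± 0.39, adjusted p = 4.81e-05). ITGA5, a chain of the fibronectin receptor, rose from 10.8 ± 2.29 to 43.7 ± 2.90 CPM at 6 h (log2 2.03 ± 0.11, adjusted p = 2.65e-13). LRP1, a scavenger receptor that clears thrombospondins, fell from 117 ± 36.7 to 23.3 ± 2.00 CPM at 6 h (log2 -2.33 ± 0.21, adjusted p = 2.58e-07). The response of ITGB6 at 2 h was larger in PEO4 B than in PEO1 B by 2.49 ± 0.51 (adjusted p = 0.00205). Untreated ITGB6 was lower in PEO4 B than in PEO1 B (log2 -2.26 ± 0.39, adjusted p = 0.00019).

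ADAMTS1, a protease that cleaves thrombospondins, ran opposite to THBS1 between the lines and after PDS. It was 4.59 ± 0.748 CPM in PEO1 A and 308 ± 10.5 in PEO4 A (log2 6.07 ± 0.12, edgeR adjusted p = 1.8e-12), and 15.4 ± 3.31 in untreated PEO1 B against 104 ± 57.9 in PEO4 B (log2 2.76 ± 0.39, adjusted p = 2.94e-05). In PEO4 B it fell to 9.45 ± 2.19 CPM at 2 h (log2 -3.46 ± 0.39, adjusted p = 4.6e-06) and was 24.2 ± 0.502 at 6 h (log2 -2.11 ± 0.36, adjusted p = 0.000164). MMP2, a gelatinase, rose in PEO4 B from 3.61 ± 3.44 to 22.5 ± 4.29 CPM at 2 h (log2 2.68 ± 0.39, adjusted p = 3.67e-05) and was lower at 6 h than at 2 h (log2 -1.66 ± 0.33, adjusted p = 0.000777). Of 9 proteases tested in PEO4 B, 3 rose and 3 fell at 2 h and 2 rose and 3 fell at 6 h.

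Of 12 latent TGF-beta genes in PEO4 B, 1 rose and 3 fell at 2 h and 1 rose and 5 fell at 6 h. TGFBR3, the co-receptor betaglycan, fell from 21.2 ± 8.92 to 4.90 ± 0.496 CPM at 2 h (log2 -2.12 ± 0.25, edgeR adjusted p = 4.19e-06), and its response differed from that of PEO1 B by -2.58 ± 0.34 (adjusted p = 4.12e-05). LTBP2, a latent TGF-beta binding protein, was 461 ± 31.0 CPM in PEO1 A and 10.04 ± 1.85 in PEO4 A (log2 -5.54 ± 0.14, adjusted p = 3.61e-11). In untreated pair B it was 251.6 ± 11.1 CPM in PEO1 B and 136.5 ± 6.09 in PEO4 B (log2 -0.88 ± 0.06, not called). Of the 12 genes, 2 were called higher and 5 lower in PEO4 A, against 12.6% and 13.1% of all genes. In untreated PEO4 B, 5 were called higher and 1 lower, against 12.2% and 12.6%.

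Of 10 YAP/TEAD and SRF/MRTF factors, 1 rose and 0 fell at 2 h in PEO4 B. The factor that rose was SRF, named here after its values were seen, from 69.1 ± 2.03 to 173 ± 7.18 CPM (log2 1.32 ± 0.06, edgeR adjusted p = 9.84e-15). TEAD3 was higher in PEO4 in both untreated pairs (log2 1.22 ± 0.09, adjusted p = 1.28e-07 in pair A and 1.40 ± 0.08, adjusted p = 2.27e-13 in pair B). Of 10 YAP/TEAD target genes other than CCN1 and CCN2, 2 rose and 1 fell at 2 h in PEO4 B and 3 rose and 1 fell at 6 h. Among them ANKRD1, also named after its values were seen, was 2.04 ± 0.595 CPM untreated, 12.7 ± 1.99 at 2 h (log2 2.64 ± 0.17, adjusted p = 2.35e-12) and 2.77 ± 0.457 at 6 h (log2 0.45 ± 0.20, not called), a course like that of CCN2. Other targets ran differently. NT5E averaged 58.7, 158.8 and 151.7 CPM in PEO4 B at 0, 2 and 6 h, and AXL 89.95, 136.3 and 307.1. AJUBA fell at 2 h (log2 -1.51 ± 0.07, adjusted p = 3.09e-15) and then rose between 2 h and 6 h, from 122 ± 8.61 to 296 ± 16.7 CPM (log2 1.28 ± 0.07, adjusted p = 3.5e-13). AXL rose more in PEO4 B than in PEO1 B at 6 h (difference 1.38 ± 0.13, adjusted p = 8.45e-08).

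**Figure D5:**
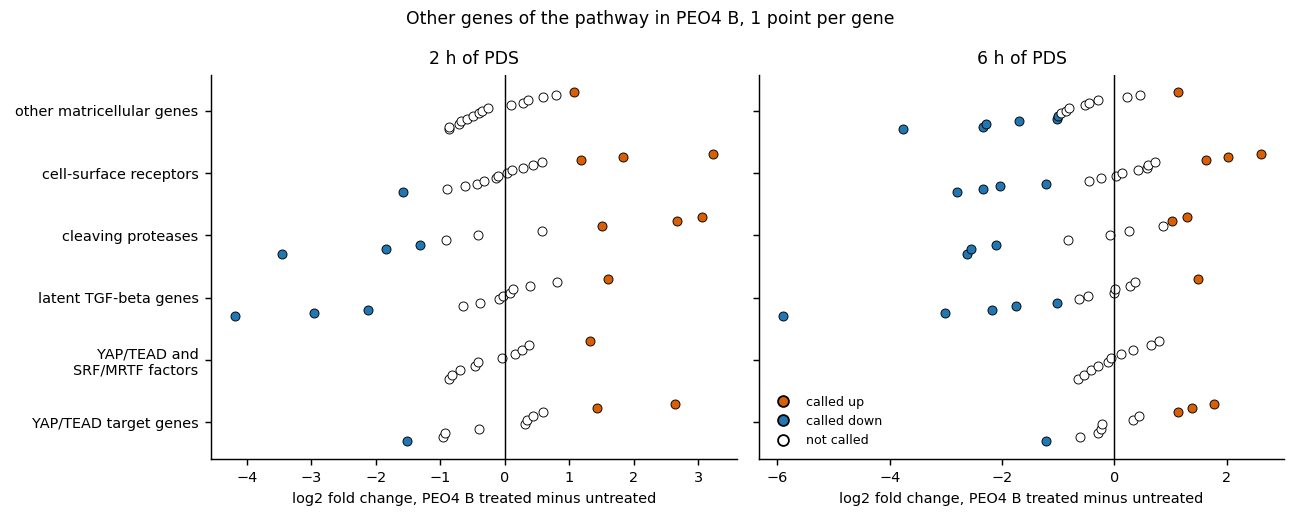
Log2 fold change of each tested gene of the 6 lists (rows) in PEO4 B after 2 h (left) and 6 h (right) of PDS against untreated; orange points were called higher, blue lower and white not called. At 2 h 11 rose and 8 fell, and at 6 h 10 rose and 19 fell.

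Over the 18 libraries of pair B, the log2 CPM of THBS1 and SPARC had Pearson r = 0.87, THBS1 and TNC 0.846, and CCN1 and CCN2 0.843. THBS1 and COMP had r = -0.949. COMP had at most 3 counts in any B library outside untreated PEO4 B, so this r mainly sets that condition apart. CCN2 and THBS1 had r = -0.0749. These values describe 18 libraries that fall into 6 conditions and share depth and treatment, so they carry no p. Among 10103 genes with a mean log2 CPM of at least 3, those most like THBS1 were MYC (0.991), CD44 (0.984) and NCS1 (0.979), and those most like TNC were PRKAR2B (0.962), STK17A (0.959) and MAPKAPK3 (0.949). S100A14 (0.988), CTSV (0.988) and CYSTM1 (0.984) were most like SPARC. SESTD1 (0.941) and ERRFI1 (0.934) were among those most like CCN1, and LAMA4 (0.97), FAM114A1 (0.942) and AHR (0.932) most like CCN2.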

How the data were processed

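RNA was sequenced from PEO1 and PEO4 cultures, 3 libraries for each of 8 conditions, labelled as biological replicates. The authors trimmed reads with fastp, aligned them to hg38 with STAR and counted them with featureCounts, per the labels and the study's methods; FastQC was also named. Versions, the gene annotation used for counting and the strand setting are not given in the sources used here. The deposited values are raw counts per gene in 2 tables, of which 2 lines of the first and 1 line of the second held no counts and were left out. Genes in the other lines numbered 28277 per table.

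Each table was fitted separately in R 4.3.3 with edgeR 4.0.16 (limma 3.58.1): TMM factors, filterByExpr with a minimum count of 10 and a minimum total of 15, a mean per condition and robust quasi-likelihood tests, Benjamini-Hochberg adjusted over all genes tested. Called genes had an adjusted p under 0.05 and a log2 fold change beyond 1 in either direction. SE is the log2 fold change divided by the root of the F statistic. CPM values are scaled by TMM factors. Intervals of count ratios are exact binomial and, like the floor of 3 counts, cover counting error only. The scripts were tested on simulated data. Positions and transcript lengths came from GENCODE release 44, promoters from RefSeq, and 7 of 7 promoter windows matched hg38. Figures were drawn with matplotlib 3.10.9.

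The members and the gene lists were chosen with earlier results of these data known. All members were named. Most of the other genes named were picked by a rule, among genes whose log2 CPM averaged at least 3. In each comparison it took the 2 called genes with the largest positive and the 2 with the largest negative log2 fold change. Some of these are given only in the comparison where they add to the text. FBLN2, CCN4, SRF, ANKRD1 and NT5E were named outside this rule. Genes like a member were the 3 with the highest Pearson r over the 18 libraries of pair B, of which 1 is not reported here. Alternatives were DESeq2 1.42.0, its size factors, upper-quartile factors, library totals, a minimum count of 50, no filter, no fold change threshold, only the groups compared, the replicate number as a block, and each library left out in turn. No 2 libraries agreed within sampling noise. Same-numbered libraries did not deviate together: r ran from -0.0433 to 0.0296 in pair A and from -0.185 to 0.16 in pair B, so the numbers were not taken to pair samples.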

Additional observations from a re-analysis of the deposited data

Results flagged for a closer look

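The response to PDS differed between PEO4 B and PEO1 B by the interaction test for 7 members at 2 h and 4 at 6 h, out of 8 tested, where 1876 and 2512 of all 17020 genes were called. On the log2 scale the response of PEO4 B minus that of PEO1 B at 2 h was 3.44 for THBS1, 1.88 for TNC, 2.02 for CCN1 and 3.32 for CCN2, and it was -1.55 for THBS2, -2.13 for VWF and -5.88 for COMP. At 6 h it was 3.19 for THBS1, 3.43 for TNC, -1.60 for THBS2 and -5.29 for VWF. The members were chosen with results of these counts known, so these differences are descriptions. COMP had at most 3 counts in any B library outside untreated PEO4 B and passed the filter only through that condition, so its call follows from its passing and its fitted value is no measure of size. VWF also rests on few counts, and TNC on an untreated PEO4 B condition whose replicate 2 stood apart. Of the untreated PEO4 B libraries, replicate 2 was also highest for THBS1 (38.9 CPM) and SPARC (127). It was lowest for COMP (0.552), VWF (0.552) and THBS2 (1.36), and in the middle for CCN1 (172) and CCN2 (102). Without it, 4129 of all genes were called in PEO4 B at 6 h in place of 3848.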

How the results depend on the processing

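No call of a member changed direction under any alternative. With the adjusted p alone, members called numbered 3 in PEO1 B at 2 h, 3 in PEO1 B at 6 h and 5 in PEO4 B between 2 h and 6 h, and the other genes called numbered 52 in pair A, 55 in untreated pair B, 36 and 34 in PEO1 B at 2 h and 6 h, 9 in PEO1 B between these times, 51 and 58 in PEO4 B at 2 h and 6 h, 57 between them, and 31 and 39 for the response differences. A minimum count of 50 left 3 members called in untreated pair B and 3 in PEO4 B at 6 h, since COMP and VWF were then not tested. In PEO1 B between 2 h and 6 h, 1 other gene was called by DESeq2, 1 with no filter and 1 with only the groups compared. Leaving out 1 library at a time gave 1 to 2 members called in PEO1 B at 6 h (2 without replicate 2 of the untreated line) and 0 to 2 other genes in PEO1 B between 2 h and 6 h. Library totals shifted the median log2 change of all genes after PDS by -0.128 to -0.16, and called members kept their direction. The replicate block, a number that did not pair the libraries, left the count of members called as it was in all 10 comparisons (7 in PEO4 B at 2 h, for example) and gave 19 other genes called there and 30 in pair A. Over all genes, the adjusted p alone gave 1182 (PEO1 B, 2 h to 6 h) to 11881 calls (PEO4 B at 6 h) in place of 29 and 3848. A minimum count of 50 gave 840 in PEO1 B at 2 h in place of 1288, and 12 between 2 h and 6 h, as did DESeq2 for the latter. Values of COMP, VWF and POSTN are limited by the few counts of these genes.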
